A study of Mus musculus with 4 samples.

Results

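The genes described here are 34 genes of protein folding in the endoplasmic reticulum (ER) and of the unfolded protein response. Their probes were taken by name, as every non-control array probe whose gene name is one of the 34. The rule itself uses no measured value, but the list was drawn up with earlier results of these data known. All 34 were on the arrays, with 69 of 56605 probes, among 24843 genes in all. Where a gene has several probes, the one with the highest mean level is used. Levels are log2 of the processed signal minus log2 of the 75th percentile of the same array, so a level of 0 is that percentile. Only values of 1 probe on different arrays are compared, since probes of different genes differ in brightness for reasons other than RNA amount.

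The cells were mouse RAW264 macrophages, a macrophage-like line of BALB/c origin, transfected with small interfering RNA (siRNA). The 4 groups were siTfe3/Tfeb with iron, siTfe3/Tfeb untreated, siGFP with iron and siGFP untreated, with 1 array each. The siTfe3/Tfeb cells received siRNA against Tfe3 and Tfeb, related transcription factors of lysosome and autophagy genes. The siGFP cells received siRNA against GFP, a jellyfish protein absent from mouse cells. All cells were transfected. Iron was 500 µM FeCl3 for 24 hours, begun 48 hours after transfection, and both untreated groups had none. With 1 array a group there is no replicate check, so every difference below is one between arrays, with no test, standard error or p-value. In bulk RNA, fewer cells that express a gene and less of its RNA per cell cannot be told apart.

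The ER folds secreted and membrane proteins. When unfolded protein builds up, 3 sensors respond: Atf6, which is cut and moves to the nucleus as a transcription factor; Ern1 (IRE1), which splices the Xbp1 messenger RNA so that it codes for an active factor; and Eif2ak3 (PERK), which slows translation and favours production of Atf4. Atf6 and Xbp1 activate chaperone, folding enzyme and degradation genes through the ER stress response element (ERSE) in their promoters. In macrophages, which secrete cytokines and enzymes, this system sets folding capacity. The arrays read the amount of RNA and neither splicing nor cleavage, so sensor activity was not measured.

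The scaling percentile lay between 593 and 636 scanner units over the 4 arrays, no spot was saturated, and all 34 genes were well above background on every array. The brightest Tfe3 probe stood at 68.4% of the siGFP signal with iron and 60.6% without. The 4 Tfeb probes lay between 90.7% and 112% with iron and between 88.3% and 105% without, so a lower signal was seen for Tfe3 and not clearly for Tfeb. The name siTfe3/Tfeb below is that of the siRNA given, per the labels. All 12 macrophage markers looked at, among them Lyz2 and Csf1r, were well above background on every array. Their median level was 5.16 with iron and 4.98 without iron in siTfe3/Tfeb cells, against 5.17 and 5.15 in siGFP cells. Of the other cell types, 1 of 6 fibroblast, 1 of 5 epithelial, 1 of 4 endothelial and 2 of 5 lymphocyte markers were. Repeated spots of 1 probe on 1 array gave an SD of a log2 difference (spot SD) of 0.064 for levels above 2, 0.084 for 0 to 2 and 0.12 for -2 to 0. These come from 1090, 16 and 10 probe-array combinations. Spot SD is technical error within an array and holds none of the variation between cultures.

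Across the 4 arrays the untreated siTfe3/Tfeb array was most often at the bottom and the siGFP array with iron most often at the top, each counted separately. The untreated siTfe3/Tfeb array was the lowest for 21 of the 34 genes, where it was the lowest for 32.0% of all 13859 genes well above background on all 4 arrays. The siGFP array with iron was the highest for 22 of 34, against 26.2% of all genes. The siTfe3/Tfeb array with iron was the lowest for 6 (23.0% of all genes) and the highest for 4 (18.4%). The untreated siTfe3/Tfeb array was the highest for 3 (30.3%). The siGFP array with iron was the lowest for 4 (26.4%), and the untreated siGFP array was the lowest for 3 (18.6%) and the highest for 5 (25.1%). Against this pattern stood Ern1, Ero1l, P4hb, Sil1 and Atf6, which were higher in siTfe3/Tfeb cells than in siGFP cells both with and without iron. Edem1 was also above 0 in both, by less than its spot SD.

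**Figure D1:**
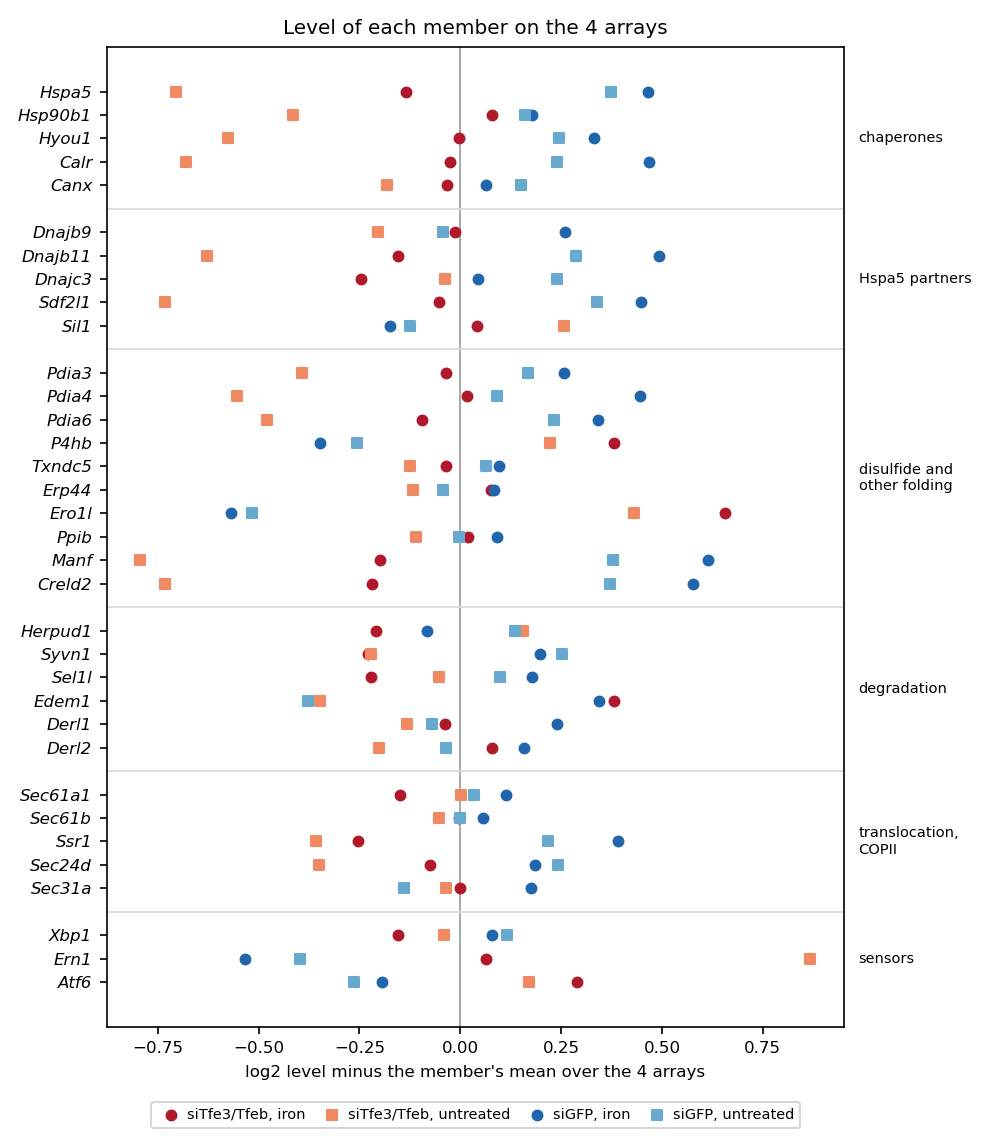
Level of each of the 34 genes on the 4 arrays, as log2 level minus that gene's own mean over the arrays (horizontal axis), with genes grouped by role down the page and 1 marker per array. The untreated siTfe3/Tfeb squares lie at the far left for most chaperones and folding enzymes and at the far right for Ern1.

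The first question is how siTfe3/Tfeb cells differed from siGFP cells. Without iron, the main chaperones and several of their partners were lower in siTfe3/Tfeb cells: Manf was 2.25-fold lower, Creld2 2.15-fold, Hspa5 2.11-fold and Sdf2l1 2.10-fold. Of the 34 genes 8 were above 0, against 46.5% of the 14315 genes measured on these arrays, and 26 were lower. Lower by 1.5-fold or more were 10 (7.58% of all genes), and 4 of them passed 2-fold (1.84%). In the other direction Ern1 was 2.40-fold and Ero1l 1.93-fold higher, so 2 of 34 passed 1.5-fold (6.25% of all genes) and 1 passed 2-fold (1.39%). The median log2 difference was -0.18 over the 34 genes and -0.03 over all genes. Among the macrophage markers 2 of 12 were above 0, Fcgr1 (-0.79) and Cd14 (-0.74) were lower by 1.5-fold or more, and their median was -0.17. Their part in the result was not tested.

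With iron, 6 of the 34 genes were above 0 (47.2% of all genes) and 28 were lower in siTfe3/Tfeb cells, but by less for the genes that led without iron. Lower by 1.5-fold or more were 5 (Manf 1.75-fold, Creld2 1.73-fold, Dnajb11 1.56-fold, Ssr1 1.56-fold and Hspa5 1.52-fold), against 5.62% of all genes, and none was 2-fold lower (1.34% of all genes). At least 1.5-fold higher were 3, against 3.97%: Ero1l at 2.34-fold, P4hb at 1.66-fold and Ern1 at 1.51-fold. Ero1l alone passed 2-fold, which 0.853% of all genes did. The median over the 34 genes was -0.26, against -0.02 over all genes, and -0.12 over the 12 macrophage markers, of which 4 were above 0. Of the 28, Hsp90b1, Canx, Erp44, Ppib, Derl2 and Sec61b were above 0 when arrays were centred on the median, at 0.02 to 0.11. This comparison uses neither untreated array.

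**Figure D2:**
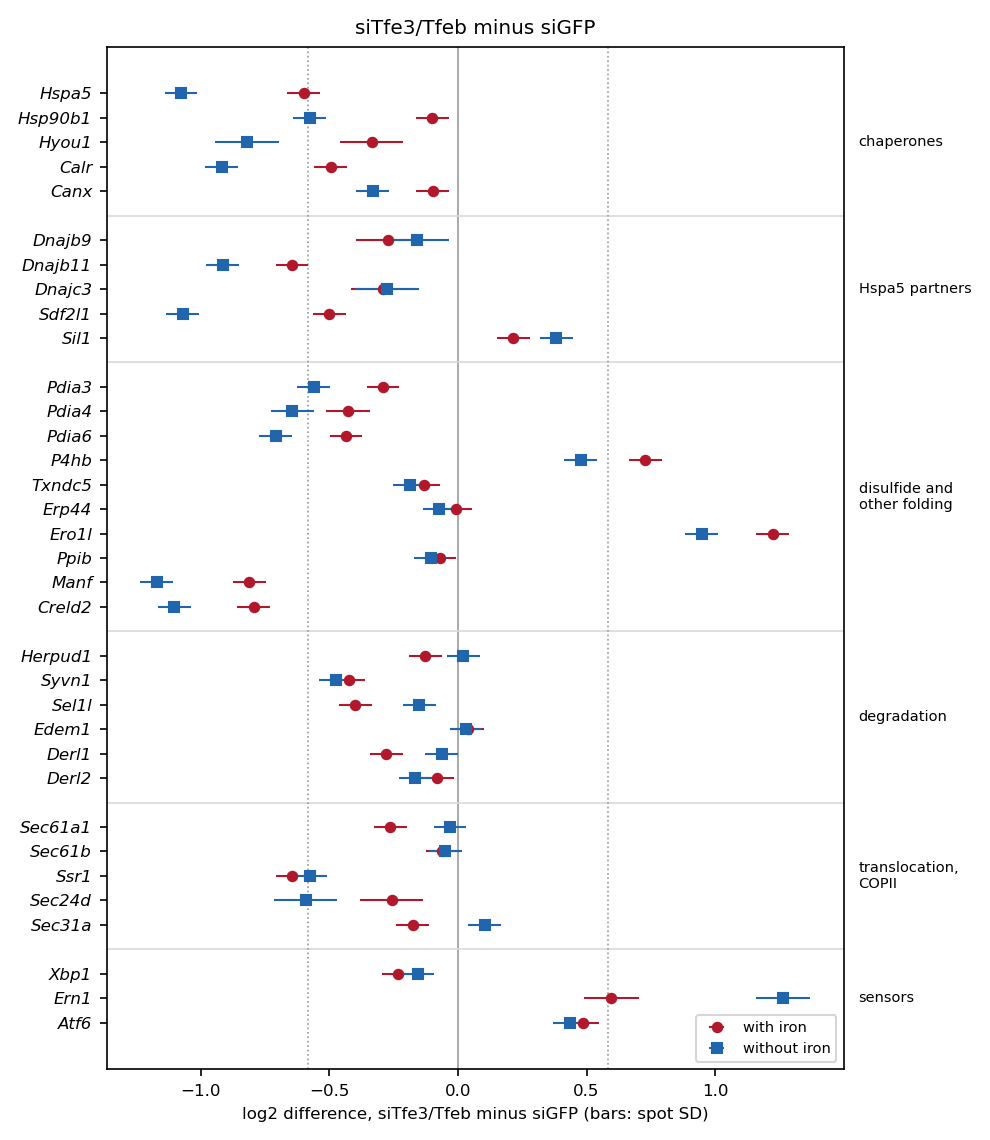
Log2 difference of siTfe3/Tfeb minus siGFP (horizontal axis) for each of the 34 genes, with iron (circles) and without (squares). Bars are the spot SD and dotted lines mark 1.5-fold; Manf, Creld2, Hspa5 and Sdf2l1 lie furthest to the left without iron, and Ern1 and Ero1l furthest to the right.

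Hspa5 (BiP, the Hsp70 chaperone of the ER; probe at chr2:34631913-34631972, mm9, the build of the array design) stood at a level of 6.22 with iron and 5.65 without iron in siTfe3/Tfeb cells, against 6.82 and 6.73 in siGFP cells. Hspa5 was thus lower in siTfe3/Tfeb cells both with and without iron. The log2 difference was -0.60 with iron and -1.08 without (spot SD 0.064 each). Its other probes gave -0.87 and -0.86 with iron and -1.28 and -1.38 without, so every probe was lower in siTfe3/Tfeb cells and the brightest gave the smallest difference.

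Hsp90b1 (Grp94, the Hsp90 of the ER) stood at 6.52 with iron and 6.03 without iron in siTfe3/Tfeb cells, against 6.62 and 6.61 in siGFP cells. Only the untreated siTfe3/Tfeb array stood apart, with a log2 difference of -0.58 there and -0.10 with iron. Hyou1 (Grp170, a nucleotide exchange factor for Hspa5) was dim, at -0.73 with iron and -1.31 without iron in siTfe3/Tfeb cells, against -0.40 and -0.48 in siGFP cells. It was 1.77-fold lower without iron and 1.26-fold lower with iron, and its 2 other probes well above background gave log2 differences of -0.71 and -0.77 without iron. The lectin chaperones hold glycoproteins until they are folded. Calr (calreticulin) read 4.24 with iron and 3.59 without iron in siTfe3/Tfeb cells, against 4.74 and 4.51 in siGFP cells, a 1.41-fold and 1.89-fold lower signal. For Canx (calnexin, its membrane-bound relative) the log2 differences were smaller, -0.10 with iron and -0.33 without. All 5 chaperones were thus lower in siTfe3/Tfeb cells in both comparisons, with medians of -0.34 with iron and -0.82 without, except that with iron Hsp90b1 and Canx both stood at 0.02 under median centring.

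The partners of Hspa5 were divided. Sdf2l1, a component of an ER chaperone complex, stood at 3.07 with iron and 2.39 without iron in siTfe3/Tfeb cells, against 3.57 and 3.46 in siGFP cells. Dnajb11 (ERdj3, an Hspa5 co-chaperone) read 3.51 and 3.04 in siTfe3/Tfeb cells with and without iron, against 4.16 and 3.95 in siGFP cells. These 2 were lower in siTfe3/Tfeb cells both with and without iron. Dnajc3 (p58IPK) and Dnajb9 (ERdj4), also co-chaperones, differed by -0.29 and -0.27 with iron and by -0.28 and -0.16 without, with a spot SD of 0.12. A dimmer Dnajb9 probe gave -0.88 with iron and -0.41 without. Sil1, a nucleotide exchange factor for Hspa5, was higher in siTfe3/Tfeb cells by 0.22 with iron and 0.38 without. Its other probes gave 0.33 and 0.04 with iron and 0.26 and -0.11 without, so the direction without iron rests on the probe.

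Among the secreted and luminal stress factors, Manf (a small secreted protein named as a neurotrophic factor) read 2.70 with iron and 2.10 without iron in siTfe3/Tfeb cells, against 3.51 and 3.28 in siGFP cells. Creld2, a secreted protein induced by ER stress, stood at 4.92 with iron and 4.41 without iron in siTfe3/Tfeb cells, against 5.72 and 5.51 in siGFP cells. Both were lower in siTfe3/Tfeb cells with and without iron, and a further Manf probe gave -0.68 with iron and -1.10 without.

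The enzymes of disulfide bond formation went both ways. Pdia6, Pdia4 and Pdia3, protein disulfide isomerases of which Pdia3 works with the lectin chaperones, were 1.35-fold, 1.35-fold and 1.22-fold lower with iron. Without iron they were 1.64-fold, 1.56-fold and 1.48-fold lower. Ero1l (current symbol Ero1a), the oxidase that recharges these enzymes, stood at 5.68 with iron and 5.46 without iron in siTfe3/Tfeb cells, against 4.46 and 4.51 in siGFP cells. P4hb, a protein disulfide isomerase that is also a subunit of collagen prolyl hydroxylase, read 6.08 and 5.92 in siTfe3/Tfeb cells with and without iron, against 5.35 and 5.44 in siGFP cells. Ero1l and P4hb were thus higher in siTfe3/Tfeb cells both with and without iron. A far dimmer P4hb probe, which the array design does not place in the genome, gave 0.80 with iron and -0.14 without. Txndc5, Erp44 (which holds client proteins and Ero1 in the early secretory pathway) and the proline isomerase Ppib differed by -0.13, -0.01 and -0.07 with iron and by -0.19, -0.07 and -0.11 without.

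Of the 6 genes of ER-associated degradation, which sends misfolded proteins to the proteasome, none was 1.5-fold different in either comparison. The ubiquitin ligase Syvn1 (Hrd1) was lowest, at -0.43 with iron and -0.48 without, and its partner Sel1l gave -0.40 and -0.15. Herpud1, a scaffold of the same complex, differed by -0.13 with iron and 0.02 without, Edem1, a mannosidase-like factor, by 0.04 and 0.03, Derl1 by -0.28 and -0.06, and Derl2 by -0.08 and -0.17. Ssr1, a subunit of the translocon-associated complex, was 1.56-fold lower in siTfe3/Tfeb cells with iron and 1.49-fold lower without, and a further probe gave -0.34 and -0.46. The translocon subunits Sec61a1 and Sec61b differed by -0.26 and -0.06 with iron and by -0.03 and -0.05 without. All 5 translocation and COPII genes were lower with iron (median -0.26), though Sec61b stood at 0.06 under median centring, and 4 of 5 were lower without (median -0.05). Of the COPII coat, which forms vesicles leaving the ER, Sec24d differed by -0.26 with iron and -0.59 (1.51-fold) without, and Sec31a by -0.18 with iron and 0.10 without.

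The sensor Ern1 went against the chaperones. Its level was 0.01 with iron and 0.81 without iron in siTfe3/Tfeb cells, against -0.59 and -0.45 in siGFP cells, so the untreated siTfe3/Tfeb array was far above the rest. The log2 difference was 0.60 with iron and 1.26 without (spot SD 0.11 each). Its 2 other probes well above background gave 0.21 and 0.75 with iron and 0.74 and 1.32 without. Atf6 read 2.59 with iron and 2.47 without iron in siTfe3/Tfeb cells, against 2.11 and 2.04 in siGFP cells, or 0.48 and 0.43 higher. Xbp1 RNA was 0.23 lower with iron and 0.16 lower without, and its further probes differed by -0.11 and -0.09 with iron and by -0.01 and -0.02 without.

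The remaining probes of these genes are a check within each array. Of 35 further probes 29 were well above background on all 4 arrays. For siTfe3/Tfeb minus siGFP, 28 of the 29 with iron and 26 without had the sign of the brightest probe. Where the brightest probe differed at least 1.5-fold, all 8 further probes had its sign in each comparison, and 6 with iron and 8 without were also at least 1.5-fold the same way. Agreement was lower for the difference by iron, described below. There 22 of 29 had the sign of the brightest probe in siTfe3/Tfeb cells and 22 of 29 in siGFP cells. Where the brightest probe differed at least 1.5-fold by iron, there were 4 further probes in siTfe3/Tfeb cells and 1 in siGFP cells. All had its sign, and 0 were also 1.5-fold different. These probes share the RNA of the array, so they check the probe and not the culture.

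**Figure D3:**
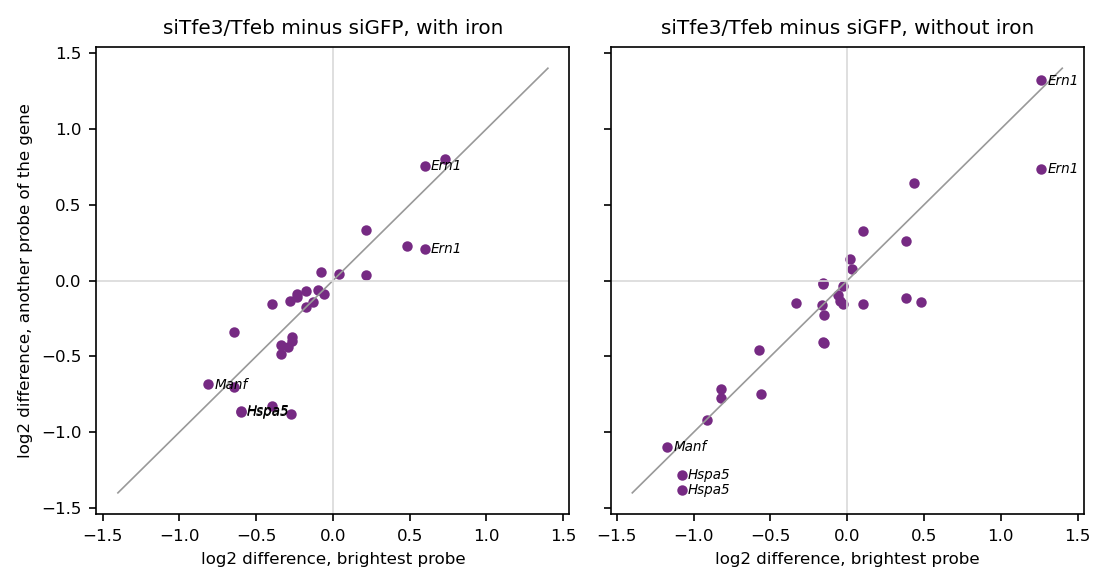
Log2 difference of siTfe3/Tfeb minus siGFP by a further probe of a gene (vertical axis) against that of the gene's brightest probe (horizontal axis), with iron on the left and without on the right; the line marks equal values. Of 29 probes, 28 with iron and 26 without share the sign of the brightest probe.

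The promoters were searched for the ERSE because the genes that were lower together include its known targets. RefSeq promoter windows (build GRCm38.p6), from 250 bases before the start site to 50 after it, were available for 28 of the 34 genes. Manf, Hyou1, Sil1, Derl1, Sec61a1 and Atf6 had none and were not searched. Of these, Manf and Hyou1 were 2.25-fold and 1.77-fold lower in siTfe3/Tfeb cells without iron. The ERSE was searched on both strands as CCAAT, any 9 bases, then CCACG. It was found in windows of 8 of these 28 genes (28.6%), and of 37 of all 27025 genes (0.137%), or in 0.119% of all 32851 windows. The 8 are among the 37. A list of unfolded protein response genes holds known ERSE targets, so a high share follows from how the list was made. The 9 matches of the 8 genes follow, shown because they are the shared sequence. Each is read 5′ to 3′ in the direction of the motif, with its fixed letters in capitals and the spacer in lower case.
Hspa5: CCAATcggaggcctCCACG
Hsp90b1 site 1: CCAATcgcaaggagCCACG
Hsp90b1 site 2: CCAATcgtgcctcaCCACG
Calr: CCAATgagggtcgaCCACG
Canx: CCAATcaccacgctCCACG
Creld2: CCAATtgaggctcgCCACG
Pdia6: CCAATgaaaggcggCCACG
Dnajc3: CCAATcagcgccaaCCACG
Syvn1: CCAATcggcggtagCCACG

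All 8 genes with an ERSE match were lower in siTfe3/Tfeb cells, both with and without iron, except that with iron Hsp90b1 and Canx both stood at 0.02 under median centring. Their median log2 difference was -0.43 with iron and -0.64 without. Of the 20 genes with a window and no match, 16 were lower with iron and 14 without, with medians of -0.15 and -0.15. At least 1.5-fold lower without iron were 4 of the 8 and 4 of the 20, beside the 7.58% of all genes. Outside the 34, 9 measured genes had a match, and none of them was 1.5-fold lower in either comparison. Their medians were 0.07 with iron and -0.07 without. Whether the ERSE bears on these differences was not tested. A match is a description of letters in a window, and the lack of one says nothing of the factor: Sdf2l1, 2.10-fold lower without iron, had a window and no full match.

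The windows of 4 genes are printed up to the base before the start site, on the strand of the gene, with the ERSE in capitals. They are Hspa5 (chr2:34771840-34772089, plus strand), Creld2 (chr15:88819396-88819645, plus strand), Calr (chr8:84846932-84847181, minus strand) and Hsp90b1 (chr10:86705445-86705694, minus strand). Hspa5, Creld2 and Calr were the ERSE genes with the largest differences without iron, and Hsp90b1 is the one with 2 matches. In Creld2 and Calr, and in the second match of Hsp90b1, the motif lies on the opposite strand and so appears reversed.
Hspa5: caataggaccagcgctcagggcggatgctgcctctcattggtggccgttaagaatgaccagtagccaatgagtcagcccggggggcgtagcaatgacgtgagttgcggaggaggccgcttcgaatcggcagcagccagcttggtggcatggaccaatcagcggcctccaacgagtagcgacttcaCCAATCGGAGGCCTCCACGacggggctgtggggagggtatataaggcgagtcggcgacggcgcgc
Creld2: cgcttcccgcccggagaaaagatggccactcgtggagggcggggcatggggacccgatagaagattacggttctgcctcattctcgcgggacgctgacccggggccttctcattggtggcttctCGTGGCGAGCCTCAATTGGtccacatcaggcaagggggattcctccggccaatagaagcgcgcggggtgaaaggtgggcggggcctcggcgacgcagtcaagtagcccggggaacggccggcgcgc
Calr: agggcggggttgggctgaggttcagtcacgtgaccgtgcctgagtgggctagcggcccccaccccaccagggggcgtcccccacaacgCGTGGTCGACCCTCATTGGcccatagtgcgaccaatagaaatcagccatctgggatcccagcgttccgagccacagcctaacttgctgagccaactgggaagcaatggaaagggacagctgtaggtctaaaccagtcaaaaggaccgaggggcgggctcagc
Hsp90b1: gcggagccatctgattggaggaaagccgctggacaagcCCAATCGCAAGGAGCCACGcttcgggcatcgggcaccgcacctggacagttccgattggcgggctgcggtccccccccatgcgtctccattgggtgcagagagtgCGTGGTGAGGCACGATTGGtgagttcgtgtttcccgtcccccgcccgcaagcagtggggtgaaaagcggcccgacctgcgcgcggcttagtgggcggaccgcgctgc

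**Figure D4:**
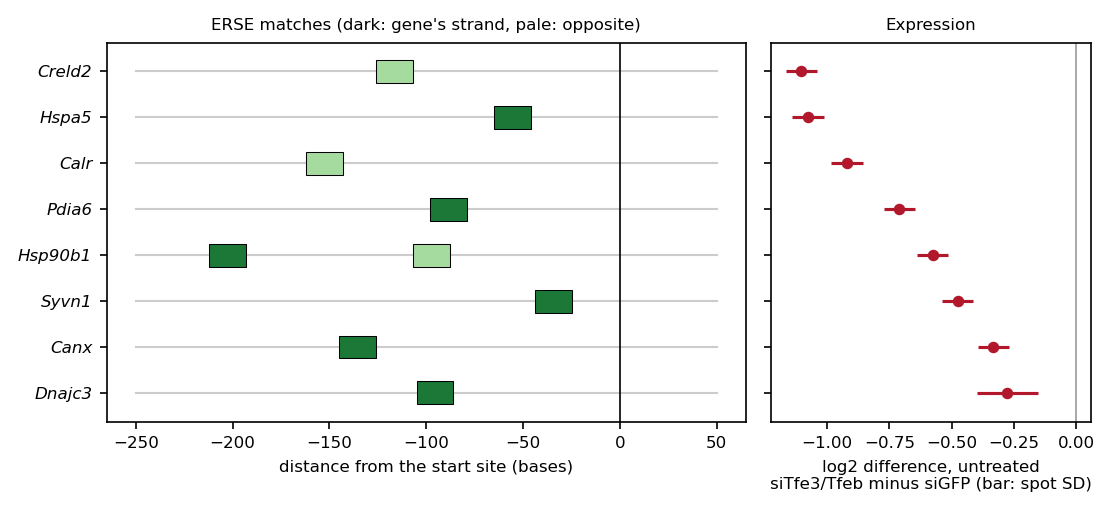
Left, position of each ERSE match (bars, 19 bases long) relative to the start site in the windows of the 8 genes, dark on the strand of the gene and pale on the opposite strand. Right, log2 difference of untreated siTfe3/Tfeb minus untreated siGFP cells with the spot SD; all 8 points lie below 0, from -1.10 for Creld2 to -0.28 for Dnajc3.

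Counted from the start site, matches began between positions -212 (Hsp90b1) and -44 (Syvn1), and the match of Hspa5 began at -65. Shares below are of all 27025 genes with a window. A second form, ERSE-II (ATTGG, any base, then CCACG), was found in Dnajb11 and Herpud1 and in 0.0444% of these genes. The unfolded protein response element TGACGTGG was found in Sec24d and Txndc5 and in 0.714%. Both forms, like the ERSE, contain CCACG or its reverse complement, which alone lay in windows of 25 of the 28 genes and of 35.5%. Of sites for Tfe3 and Tfeb, the core CACGTG lay in windows of Calr, Dnajb9, Ssr1 and Txndc5 and of 8.09%. The longer form, with GT before and AC after this core, lay in Calr alone of the 28 and in 0.370%, and it overlaps the core match there. The Atf4 type element TGATGCAA was found in Herpud1 and in 1.03%.

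The second question is how iron acted on these genes. In siGFP cells the differences were small: 24 of 34 genes were higher with iron (46.0% of all genes), with a median log2 difference of 0.09 against -0.02 over all genes. Edem1 alone was at least 1.5-fold higher (4.2% of all genes were), none was 1.5-fold lower (1.86%), and none was 2-fold different in either direction (1.4% higher and 0.266% lower among all genes). In siTfe3/Tfeb cells 26 of 34 were higher with iron (49.1% of all genes), with a median of 0.17 against -0.01. Edem1, Sdf2l1, Calr and Manf were at least 1.5-fold higher (4.58% of all genes) and Ern1 1.5-fold lower (3.38%). None was 2-fold different, where 1.61% of all genes were 2-fold higher and 0.453% lower.

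Edem1 had the same difference in both cell states. It stood at 3.23 with iron and 2.50 without iron in siTfe3/Tfeb cells, and at 3.19 with iron and 2.47 without iron in siGFP cells. That is 1.66-fold higher with iron in siTfe3/Tfeb cells and 1.65-fold in siGFP cells. A further Edem1 probe was higher with iron by 0.41 in siTfe3/Tfeb cells and 0.44 in siGFP cells, short of 1.5-fold.

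Chaperones were higher with iron mainly on the siTfe3/Tfeb arrays. Calr was 1.57-fold higher with iron in siTfe3/Tfeb cells and 1.17-fold in siGFP cells, Sdf2l1 1.60-fold and 1.08-fold, Hspa5 1.48-fold and 1.07-fold, Hyou1 1.49-fold and 1.06-fold, and Hsp90b1 1.41-fold and 1.01-fold. Manf was 1.51-fold and 1.18-fold higher, Creld2 1.43-fold and 1.15-fold, and Dnajb11 1.39-fold and 1.15-fold. A further Manf probe gave log2 differences of 0.54 in siTfe3/Tfeb cells and 0.13 in siGFP cells, short of 1.5-fold. Pdia4 was closer in both, at 1.48-fold and 1.28-fold. Among genes lower with iron, Herpud1 differed by -0.37 in siTfe3/Tfeb cells and -0.22 in siGFP cells, and Dnajc3 by -0.21 and -0.19. Ern1 differed by -0.80 with iron in siTfe3/Tfeb cells and by -0.14 in siGFP cells, and its further probes gave -0.25 and -0.37 in siTfe3/Tfeb cells but 0.28 and 0.19 in siGFP cells.

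**Figure D5:**
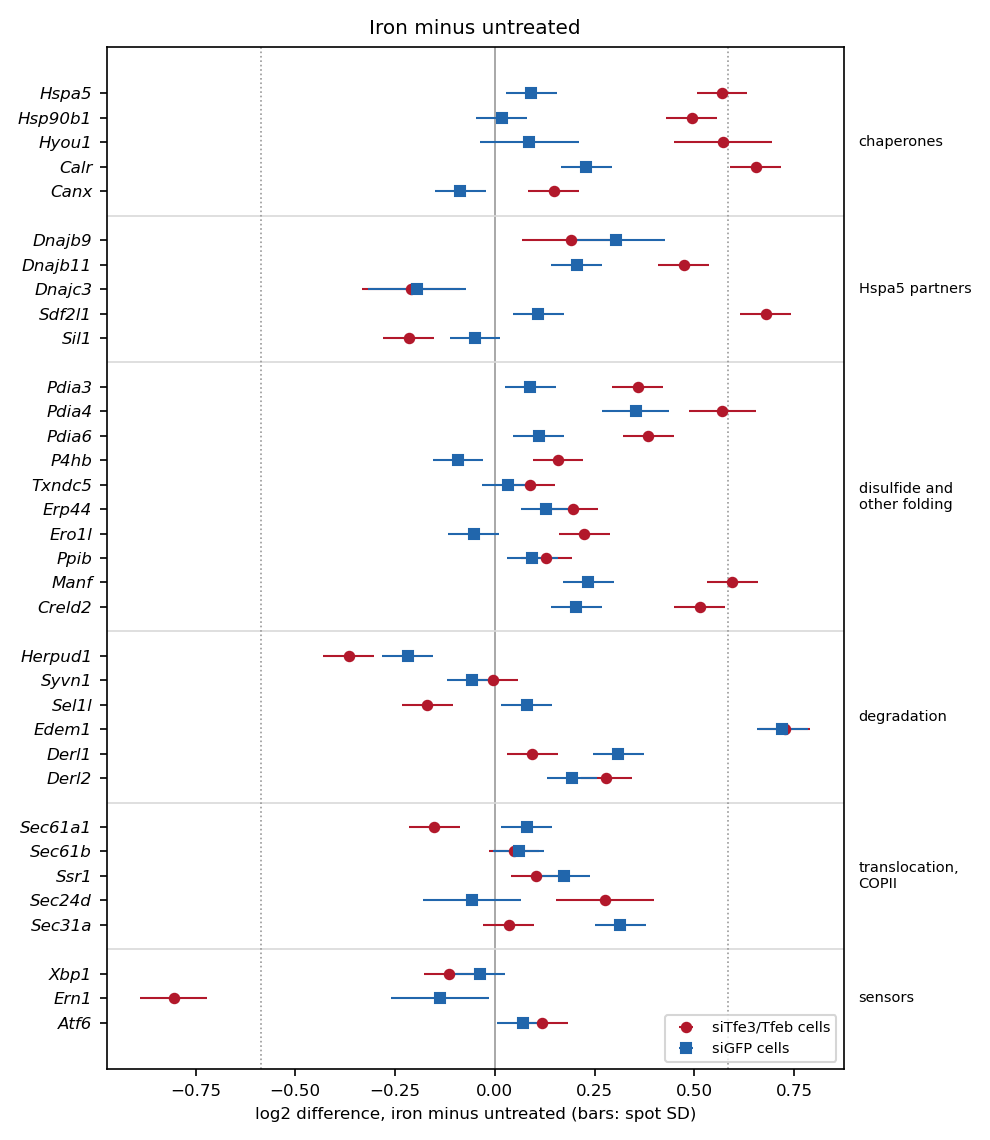
Log2 difference of iron minus untreated (horizontal axis) for each of the 34 genes in siTfe3/Tfeb cells (circles) and siGFP cells (squares). Bars are the spot SD and dotted lines mark 1.5-fold; Edem1 lies past the line in both, and Ern1 lies furthest to the left in siTfe3/Tfeb cells.

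Subtracting the siGFP from the siTfe3/Tfeb iron response gives the same number for each gene as subtracting its siRNA difference without iron from that with iron, so this comparison adds no array. It was above 0 for 22 of 34 genes (50.1% of all genes), with a median of 0.06. By role, all 5 chaperones and all 10 folding enzymes and stress factors were above 0, with medians of 0.48 and 0.26. Of these Ppib (0.03), Txndc5 (0.05) and Erp44 (0.07) lay within the spot SD of 0.090, and Ppib stood at -0.02 under quantile normalization and -0.03 with normexp before it. Above 0 were 3 of 6 degradation genes, 2 of 5 partners of Hspa5, 1 of 5 translocation and COPII genes and 1 of 3 sensors. The largest values were 0.57 for Sdf2l1, 0.49 for Hyou1, 0.48 for Hspa5 and 0.48 for Hsp90b1. Further probes gave 0.35 and 0.23 for Hyou1 and 0.52 and 0.41 for Hspa5. Of the 29 further probes well above background, 21 had the sign of the brightest probe. Those of Ern1 gave -0.53 and -0.57, short of 1.5-fold. None of the 34 was 1.5-fold above 0, as 2.63% of all genes were, and only Ern1 (-0.67) was 1.5-fold below, as 2.48% were. None was 2-fold from 0, as 0.281% were above and 0.346% below. The untreated siTfe3/Tfeb array, lowest for 21 of the 34, enters both the iron difference in siTfe3/Tfeb cells and the siRNA difference without iron. A deviation of that 1 culture and a changed response to iron cannot be told apart.

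Other ER genes were taken in lists of neighbouring functions, and in each the share past 1.5-fold was near or below that of all genes (with iron 3.97% higher and 5.62% lower, without iron 6.25% and 7.58%). Of 22 measured genes of glycosylation and glycoprotein quality control, 1 was 1.5-fold lower in siTfe3/Tfeb cells without iron (the proline isomerase Fkbp11 at -1.06, spot SD 0.26) and none with iron, and Rpn1, an oligosaccharyltransferase subunit, differed by -0.39 with iron and -0.53 without. Of 16 further degradation genes Vimp (current symbol Selenos) was 1.5-fold lower in both, at -0.91 with iron and -0.78 without. Among 18 genes of translocation and signal peptide cleavage, Sec61a2 was 1.5-fold higher with iron (0.59) and none was past that fold without, where Ssr2 stood at -0.49. None of 24 genes of ER to Golgi traffic was 1.5-fold different, and Sec23b, a COPII subunit, was lowest at -0.39 with iron and -0.47 without. Medians of these 4 lists lay between -0.19 and -0.08 with iron and between -0.08 and -0.04 without.

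The PERK and Atf4 branch stood on the other side. Of 19 measured genes 18 were higher in siTfe3/Tfeb cells with iron and 14 without, with medians of 0.39 and 0.64. At least 1.5-fold higher were 4 with iron and 11 without, beside 3.97% and 6.25% of all genes. Trib3, a pseudokinase induced by Atf4, stood at 2.86 with iron and 3.37 without iron in siTfe3/Tfeb cells, against 1.75 and 1.58 in siGFP cells. Chac1, which degrades glutathione, read 1.92 and 2.23 in siTfe3/Tfeb cells with and without iron, against 0.75 and 0.47 in siGFP cells. Ddit3 (CHOP) read 0.18 and 0.69 in siTfe3/Tfeb cells with and without iron, against -0.25 and -0.53 in siGFP cells. Trib3, Chac1 and Ddit3 were thus highest on the array where Hspa5 was lowest. Not all 19 were, since Atf3 and Slc7a11 were higher with iron in siTfe3/Tfeb cells. Whether the branch bears on the 34 genes was not tested. The list as a whole had 6 of 19 genes higher with iron in siTfe3/Tfeb cells (median -0.31) and 11 of 19 in siGFP cells (median 0.08). By 1.5-fold or more, 4 were higher and 2 lower in siTfe3/Tfeb cells, beside 4.58% and 3.38% of all genes. In siGFP cells 2 were higher and 0 lower by that fold, beside 4.2% and 1.86%. In the difference of iron responses 1 was above and 4 below by that fold, beside 2.63% and 2.48%. Atf3 and Slc7a11, those with the largest differences by iron, were higher by 0.97 and 1.63 in siTfe3/Tfeb cells and 1.27 and 1.03 in siGFP cells. The sensors and transducers outside the 34 gave 12 measured genes. Of these Creb3l2, a membrane-bound transcription factor, was higher in siTfe3/Tfeb cells by 0.46 with iron and 0.82 without, and Wfs1, an ER membrane protein, differed by -1.44 with iron and -0.36 without.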

How the data were processed

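RNA of 4 cultures was labelled with Cy3 for 1-colour Agilent arrays, per the labels' protocols. The authors read the arrays with Agilent Feature Extraction 12.0.3.1, per the submitters' processing notes, and the deposited processed intensity has background subtraction and detrending applied, per the file headers. The 4 arrays lay on 1 slide and were scanned on 1 day, so neither separates them. The authors' deposited log2 series matrix matched differences computed from the scanner files (slope 1.0 and r 1.0, across genes), and every probe's median lay within 5e-07 of 0, so its scale, centring and direction are known. Its column medians were 0.0013 (siTfe3/Tfeb with iron), -0.087 (siTfe3/Tfeb untreated), 0.022 (siGFP with iron) and -0.0042 (siGFP untreated).

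Values are log2 intensity minus log2 of the 75th percentile of 59305 non-control spots. Spots with an outlier flag were left out, which cost 3 probes. For counts over all genes, probes were named through RefSeq (assembly GRCm38.p6): 33767 by accession and 10176 by symbol, and 12662 had no gene. Counts are over genes well above background on the arrays compared, at 1.5-fold and 2-fold. Spot error comes from probes with at least 5 spots, both non-control probes and the E1A control probes of the array. The steps were run on simulated arrays with set fold changes and spot error only. These held no variation between cultures, so they check the calculation and not the differences reported. Alternatives used limma 3.58.1 in R 4.3.3; other steps used Python 3.11.15. The 34 genes and all lists were chosen with earlier results of these data known. Named genes are the 34, Tfe3, Tfeb and up to 3 genes of each further list with the largest difference in a comparison, among those above background throughout. Of the listed genes, Vimp, Selk and Ufd1l were found under their current symbols. Protein sequences and the place of probes within transcripts were not analysed here.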

Additional observations from a re-analysis of the deposited data

Results flagged for a closer look

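For 5 genes the sign of a difference was opposite in the 2 settings of a contrast, each beyond its spot SD of 0.064; with 1 array a group the difference between settings was not tested. With iron, Canx stood at 0.148 in siTfe3/Tfeb cells and -0.0861 in siGFP cells, and P4hb at 0.159 and -0.0923. Sel1l stood at -0.169 in siTfe3/Tfeb cells and 0.0802 in siGFP cells, and Sec61a1 at -0.152 and 0.0803. Sec31a was lower in siTfe3/Tfeb cells with iron, at -0.176, and higher without iron, at 0.104. All lie far below 1.5-fold. Further probes of Canx, Sel1l and Sec61a1 did not repeat the opposite signs. In siTfe3/Tfeb and siGFP cells Canx gave 0.10 and 0.02, Sel1l 0.003 and 0.42, and 0.10 and 0.03. Sec61a1 gave 0.08 and 0.32, and -0.40 and -0.07. The further P4hb probe did repeat them, at 0.31 and -0.64. Those of Sec31a were divided, at -0.17 with iron and 0.33 without, and at -0.07 and -0.15.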

How the results depend on the processing

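Tried in turn were median centring, quantile normalization, the series matrix values, the mean of all probes of a gene, dropping the background filter, and normexp (offset of 50) followed by either scaling. Dropping the background filter could not alter values of the 34 genes, since all were well above background on every array. Median centring and the series matrix values only shift all genes by the same amount in a comparison. Of 170 single-gene differences 149 kept their sign under all 7, among them all 27 of at least 1.5-fold, and none of these reversed. The medians over the 34 genes kept their sign throughout: from -0.26 to -0.14 for siTfe3/Tfeb with iron, -0.25 to -0.13 without iron, 0.13 to 0.28 for iron in siTfe3/Tfeb cells, 0.07 to 0.11 for iron in siGFP cells and 0.06 to 0.18 for the difference of iron responses. Median centring moved the median of all genes in the last comparison to 0.12, and from -0.02 to 0.10 for siTfe3/Tfeb with iron. For iron in siTfe3/Tfeb cells it moved that median from -0.01 to 0.10.

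Counts of genes at least 1.5-fold different that moved by over 1.5 times were these. Smaller moves took the 10 lower in siTfe3/Tfeb cells without iron to between 8 and 12, the 3 higher with iron to between 2 and 4, and the 4 higher with iron in siTfe3/Tfeb cells to 3. With median centring, 2 were lower in siTfe3/Tfeb cells with iron (3.58% of all genes) and 9 were higher with iron in siTfe3/Tfeb cells (6.43%). In the difference of iron responses 4 were above (4.73%) and 0 below (1.34%). With the series matrix values 7 were higher with iron in siTfe3/Tfeb cells (4.95% of all genes). In the difference of responses 1 was above with these values (2.88%) and 1 with quantile normalization (3.16%). With the mean of all probes 3 were lower in siTfe3/Tfeb cells with iron (6.06% of all genes). By iron, 0 were higher in siGFP cells (4.24%) and 0 were lower in siTfe3/Tfeb cells (4.45%). In the difference of responses 1 was above (2.73%) and 0 below (4.49%). At 2-fold without iron, quantile normalization gave 2 genes higher in siTfe3/Tfeb cells and the mean of all probes 0, since Ern1 averaged 0.74 over its probes. Shares of all genes at 2-fold were not taken under the alternatives. The 1.5-fold threshold in place of 2-fold gave 3 higher and 5 lower in siTfe3/Tfeb cells with iron and 2 and 10 without. It gave 4 and 1 for iron in siTfe3/Tfeb cells, 1 higher for iron in siGFP cells and 1 below in the difference of responses. The shares of all genes for these counts are those given in Results. The cause of other moves was not tested. No paired analysis was possible because each group held 1 array. Precision is limited by having 1 array a group, and dim genes such as Hyou1, Dnajb9, Dnajc3 and Sec24d have the larger spot SD.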
